A study of Mus musculus with 16 samples.

Results

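The genes described here encode the ligands, receptors, secreted inhibitors and Smad transducers of 4 signalling pathways that shape the developing lung: Wnt, FGF, BMP, and TGF-beta with activin. A gene was a member when its symbol began with Wnt, Fzd, Dkk, Fgf, Bmp, Gdf, Smad or Tgfb and a number, with Fgfr, Bmpr or Tgfbr, or with Sfrp or Inhb. These patterns found 103 of the 16504 gene symbols on the array, and all 103 were among the 20629 features tested. The Wnt pathway had 37 members, FGF 28, BMP 25 and TGF-beta with activin 12, while Smad4, the partner of both BMP and TGF-beta Smads, was counted by itself as 1 more. Membership went by symbol, so genes such as Bmp1 (a procollagen protease), Bmp2k (a kinase), Fgfr1op2 and Tgfbrap1 are included although they are neither ligands nor signalling receptors. These are examples, and the role of every other member was not checked. Some genes of these families are not analysed here.

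The study exposed male C57/BL6 mice to lipopolysaccharide (LPS), the outer-membrane glycolipid of Gram-negative bacteria, by inhalation. The LPS group inhaled it as an aerosol for 5 days at an age of 8 weeks, and lungs were taken when the last inhalation ended. The air group, of the same sex, strain and age, breathed air for the same 5 days. Each RNA pool combined whole lungs of 3 animals, so the 24 mice made up 4 LPS pools and 4 air pools, and each pool was hybridised against a commercial universal mouse reference RNA on 2 two-colour arrays with the dyes exchanged.

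Wnt proteins bind Frizzled receptors and either stabilise beta-catenin or act through beta-catenin-independent routes, and Sfrp and Dickkopf proteins block them outside the cell. FGFs act through receptor tyrosine kinases with heparan sulphate as a cofactor, and in lung the mesenchymal ligands Fgf7 and Fgf10 signal to epithelial Fgfr2. BMP, TGF-beta and activin ligands assemble type I and type II receptor kinases that phosphorylate Smads, and TGF-beta is best known in adult lung for matrix production and fibrosis.

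Levels are given as log2(lung/reference) per pool, so that 0 means the same signal as the reference RNA, and differences are LPS minus air on the same log2 scale with their standard error (SE). Levels of different genes are not compared, since each probe has its own response. A gene was called changed when its adjusted p was under 0.05 in limma's moderated test, with Benjamini-Hochberg adjustment over all 20629 features. Signal was positive in both channels on 97.2% to 99.5% of spots per array, and the median lung intensity was 4.27 to 28.2 times the local background. The lung label was borne out: the mean level of 10 lung tissue markers (surfactant proteins, Scgb1a1, Ager and others) was 3.25 to 4.79 in LPS pools and 2.52 to 4.2 in air pools. Of the 16 arrays 15 were used, because the Cy3-labelled lung sample of air pool 4 has a file that joins images of 2 arrays. Images were quantified with 2 versions of one program: version 2.2.3 for LPS pools 1 and 2 and air pools 3 and 4, and version 2.2.4 for LPS pools 3 and 4 and air pools 1 and 2. The 2 arrays of a pool were less alike in version 2.2.4. Their ratios correlated at r = 0.418 (LPS pool 3), 0.596 (LPS pool 4), 0.795 (air pool 1) and 0.479 (air pool 2). In version 2.2.3 r was 0.899 (LPS pool 1), 0.854 (LPS pool 2) and 0.82 (air pool 3). Between pools r ran from 0.451 to 0.934. Image names carry week number 1 for every LPS pool but week 4 (air pools 1 and 2) or week 8 (air pools 3 and 4) for the controls, although the labels give all pools the same duration; whatever this number stands for cannot be told apart from the exposure.

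Of the 103 members, 4 rose in LPS lungs, none fell by the same test, and 99 did not pass the threshold. The 4 were Wnt5a, a ligand known mainly for beta-catenin-independent signalling; Inhba and Inhbb, the beta A and beta B subunits that form activins A and B; and Tgfbr1, the type I receptor for TGF-beta. They make up 3.88% of the members, against 6.67% of all features changed in either direction, 5.95% higher and 0.713% lower. At an unadjusted p under 0.05, which 14.8% of all features passed as higher and 7.72% as lower, 9 members were higher and 18 lower. The median difference of the 103 members was -0.15, against 0.01 over all features, with 37 members above 0 and 66 below. For 12 members (11.7%) the pools of the groups did not overlap, against 16.7% of all features. LPS lay above in 5 of them and below in 7, against 11.3% and 5.44% of all features. In whole-lung RNA, fewer cells of a type and less RNA per cell cannot be told apart.

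Promoter stretches of the members that rose are shown because they are the sequence next to the transcripts that changed. RefSeq's table, of assembly GRCm38.p6, had an entry for 3 of these 4 genes, and each stretch below is the 250 bases before a start site on the gene's own strand. Capitals mark matches to any of 5 motifs searched on both strands, namely the NF-kB consensus, AP-1 (TGANTCA), CRE (TGACGTCA), the TATA box motif TATAAA and the GC box motif GGGCGG. Inhba is read from chr13:16011601-16011850 on the plus strand, Inhbb from chr1:119422249-119422498 on the minus strand, and Tgfbr1, at the first of its 2 start sites in the table, from chr4:47352972-47353221 on the plus strand.
Inhba: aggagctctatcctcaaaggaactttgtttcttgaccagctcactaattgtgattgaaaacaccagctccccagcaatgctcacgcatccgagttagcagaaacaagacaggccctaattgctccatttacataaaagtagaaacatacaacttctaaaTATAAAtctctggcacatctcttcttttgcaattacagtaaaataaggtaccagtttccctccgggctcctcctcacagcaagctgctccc
Inhbb: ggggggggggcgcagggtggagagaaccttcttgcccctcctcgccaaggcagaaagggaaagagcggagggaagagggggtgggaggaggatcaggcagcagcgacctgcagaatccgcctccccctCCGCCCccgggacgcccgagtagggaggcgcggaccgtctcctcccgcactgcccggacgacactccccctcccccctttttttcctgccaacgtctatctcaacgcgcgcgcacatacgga
Tgfbr1: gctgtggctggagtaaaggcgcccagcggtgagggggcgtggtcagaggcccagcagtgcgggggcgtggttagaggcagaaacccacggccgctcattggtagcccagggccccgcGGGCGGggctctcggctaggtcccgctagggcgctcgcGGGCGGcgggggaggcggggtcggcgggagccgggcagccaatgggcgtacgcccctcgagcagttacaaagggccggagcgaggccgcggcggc
In Inhba, 1 TATA match lies at bases -91 to -86 before the start site. Inhbb holds 1 GC box, read on the opposite strand, at -122 to -117, and Tgfbr1 holds GC boxes at -133 to -128 and -95 to -90. The letters of the NF-kB consensus, AP-1 and CRE do not occur in these 3 windows, and no matches overlap. Over 32851 RefSeq stretches of the same length, a TATA match occurs in 12.4%, a GC box in 32.7%, AP-1 in 6.75%, the NF-kB consensus in 3.9% and CRE in 1.55%. The matches describe the letters only.

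Among the activin subunits, Inhba had the larger difference. Its levels in LPS pools 1 to 4 were 0.63, 0.61, 0.06 and -0.18, against -2.23, -1.74, -1.35 and -1.2 in air pools 1 to 4. Every LPS pool lay above every air pool, and the difference was 1.91 ± 0.26 (SE, n = 4 pools per group), a 3.76-fold rise (limma, adjusted p = 0.00192). The median lung signal of the Inhba probe was 10.3 times the local background on LPS arrays but 1.73 times on air arrays, so its air level is the less precisely measured one. Within the pools of version 2.2.3 the difference was 1.89, and within those of version 2.2.4 it was 1.93.

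Inhbb rose as well. It was measured at 1.73, 1.71, 1.16 and 0.68 in LPS pools 1 to 4 and at -0.54, -0.31, 0.00 and -0.09 in air pools 1 to 4, again with no overlap. The rise was 1.55 ± 0.24 (SE, n = 4 per group), or 2.93-fold (limma, adjusted p = 0.00407), with 1.76 within version 2.2.3 and 1.34 within version 2.2.4. Both subunits were past the threshold under all 21 alternative settings run.

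The remaining subunits, Inhbc and Inhbe, are best known from liver and did not pass the threshold. Inhbc measured -0.27, -0.2, 0.16 and -0.27 in LPS pools 1 to 4, against 0.29, 0.28, 0.26 and 0.64 in air pools 1 to 4. All LPS values lay below all air values, but the difference of -0.51 ± 0.15 (SE, n = 4 per group) had an adjusted p of 0.074 in limma. The median lung signal of the Inhbc probe was only 1.56 times the local background on LPS arrays and 1.75 times on air arrays. Its levels are therefore imprecisely measured in both groups. For Inhbe the difference was -0.47 ± 0.20 (limma, adjusted p = 0.204), with -0.93 within version 2.2.3 and -0.01 within version 2.2.4.

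**Figure D1:**
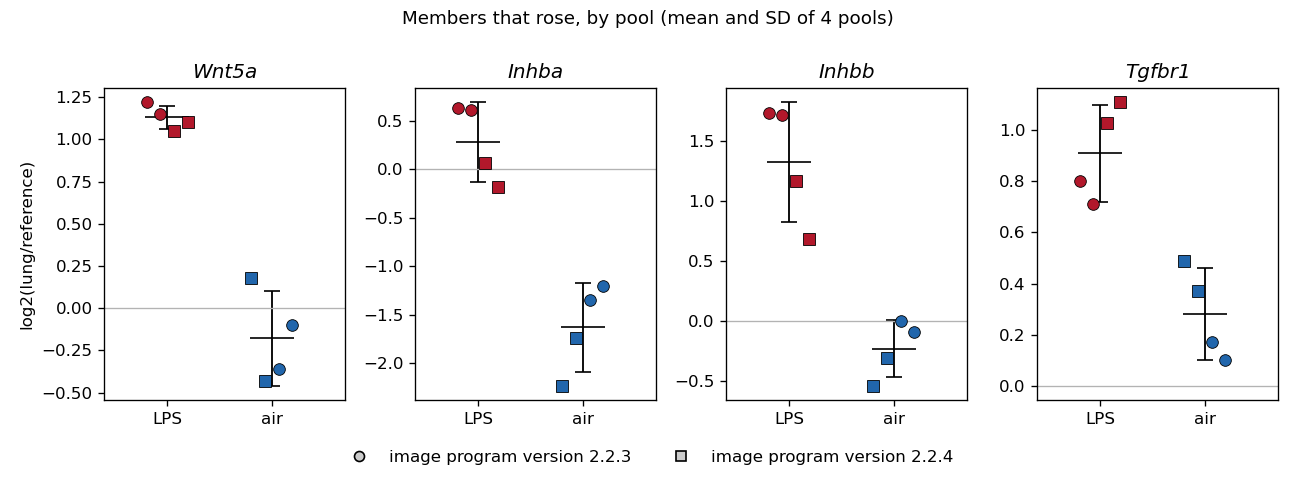
Level of Wnt5a, Inhba, Inhbb and Tgfbr1 in every pool, as log2(lung/reference), with LPS pools in red at the left and air pools in blue at the right of each panel; circles are pools quantified with version 2.2.3 and squares with version 2.2.4, and the bars give the mean and SD of 4 pools. In each panel the 4 LPS pools lie above the 4 air pools, with the widest distance in Inhba (1.91 between means).

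The receptors of TGF-beta itself moved less. Tgfbr1 had levels of 0.8, 0.71, 1.03 and 1.11 in LPS pools 1 to 4 and of 0.49, 0.37, 0.17 and 0.1 in air pools 1 to 4. The groups did not overlap, and the rise of 0.63 ± 0.15 (SE, n = 4 per group) was 1.55-fold (limma, adjusted p = 0.0295). It was 0.62 within version 2.2.3 and 0.64 within version 2.2.4. This call is less firm than the other 3: it held in 13 of 21 alternatives, and the adjusted p reached 0.0983 with the pool number as a block. With all 16 arrays the Tgfbr1 difference was 0.62 (limma, adjusted p = 0.0682). It also missed the threshold when LPS pool 1, 3 or 4, or air pool 3 or 4, was left out, with differences of 0.57 to 0.67 and adjusted p-values of 0.0633 to 0.0842.

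Tgfbr2, the type II receptor that pairs with it, had a difference of 0.50 ± 0.22 (SE, n = 4 per group; limma, adjusted p = 0.216). Its LPS pools 1 to 4 stood at 0.81, 1.12, 1.59 and 1.33, and its air pools 1 to 4 at 1.01, 1.08, 0.32 and 0.44, so that 1 LPS pool lay below 2 air pools. With the image program version as a block it passed, at an adjusted p of 0.0334. The co-receptor Tgfbr3 differed by -0.16 ± 0.15 (limma, adjusted p = 0.56).

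None of the 3 TGF-beta ligands, which are secreted as latent complexes, passed the threshold. Tgfb1, the isoform most studied in fibrosis, averaged -0.19 ± 0.13 in LPS pools and -0.32 ± 0.30 in air pools (SD, n = 4 each), a difference of 0.12 with a 95% interval of -0.24 to 0.49. In air, pool 3 was at 0.12 and the other pools between -0.5 and -0.41. For Tgfb2 the difference was 0.38 ± 0.19 (limma, adjusted p = 0.282), and for Tgfb3 it was -0.16 ± 0.21 (limma, adjusted p = 0.679). Smad3, a receptor-activated Smad of this pathway, differed by 0.21 ± 0.27 (limma, adjusted p = 0.694), with air pool 2 at 0.03 and the other air pools between -1.26 and -1.19. Without air pool 2 it was 0.52 (limma, adjusted p = 0.087), and over the mean of its probes it was 0.42. The shared Smad4 differed by 0.06 ± 0.12 (limma, adjusted p = 0.815).

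In the Wnt pathway, Wnt5a was the 1 of 37 members that rose. Its LPS pools 1 to 4 had levels of 1.22, 1.15, 1.05 and 1.1, against 0.18, -0.43, -0.36 and -0.1 in air pools 1 to 4. The LPS pools lay within 0.17 of each other at 1.13 ± 0.07 (SD, n = 4), all above the air pools at -0.18 ± 0.28 (SD, n = 4). The difference of 1.31 ± 0.15 (SE) was a 2.48-fold rise (limma, adjusted p = 0.000814), with 1.41 within version 2.2.3 and 1.2 within version 2.2.4. It was past the threshold in 19 of 21 alternatives, and in the other 2 it was 1.14 with lung in Cy5 only and 1.2 within version 2.2.4, at adjusted p-values of 0.0505 and 0.0503. The other 18 Wnt ligands lay between -0.52 (Wnt2b) and 0.34 (Wnt11), with adjusted p-values of 0.114 to 0.796. Among them Wnt7b, a ligand of lung epithelium, differed by 0.30 ± 0.16 (limma, adjusted p = 0.29), or by -0.11 when arrays were centred on their median in place of loess.

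Of the 10 Frizzled receptors, none passed the threshold by limma. At an unadjusted p under 0.05, 3 were lower, beside 7.72% of all features. Fzd8 was at -0.37, -0.16, -0.35 and -0.01 in LPS pools 1 to 4 and at 0.04, 0.17, 0.66 and 0.24 in air pools 1 to 4. The groups did not overlap, and the difference of -0.50 ± 0.16 (SE, n = 4 per group) had an adjusted p of 0.0994 in limma. Fzd4, which also serves as the receptor for norrin in blood vessels, was more than 2-fold above the reference RNA in both groups, at 1.84 ± 0.30 in LPS pools and 1.77 ± 0.52 in air pools (SD, n = 4 each). Its difference of 0.07 had a 95% interval of -0.49 to 0.63. Fzd1 differed by -0.05 ± 0.16 (limma, adjusted p = 0.882).

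Secreted Wnt inhibitors did not pass the threshold either. Sfrp1, a soluble decoy for Wnt proteins, had levels of 0.5, 0.66, 1.05 and 1.29 in LPS pools 1 to 4 and of 0.18, 0.38, 0.51 and -0.03 in air pools 1 to 4. The lowest LPS pool lay just under the highest air pool, and the difference was 0.61 ± 0.20 (SE, n = 4 per group; limma, adjusted p = 0.0964). With the version as a block its adjusted p was 0.0463. Sfrp2, Sfrp4 and Sfrp5 lay between -0.36 and -0.24. The 4 Dickkopf genes lay between -0.04 and 0.17, with adjusted p-values of 0.602 to 0.93. Dkk1 and Dkk4 were dim, with median lung signals of 1.46 and 1.28 times the local background on LPS arrays. On air arrays these were 1.3 and 1.07 times, so the differences of these genes are imprecisely measured. Dkk3 was on average more than 2-fold above the reference in both groups, at 1.04 ± 0.21 in LPS pools and 1.08 ± 0.35 in air pools (SD, n = 4 each). Its difference of -0.04 became 0.16 when the arrays were scaled to each other. Dkk2 had its 4 LPS values at 1.49, 1.39, -0.09 and 0.1, against 0.48, 0.37, 0.39 and 0.98 in air pools 1 to 4. Its LPS pools of version 2.2.3 were the high ones, and the difference was 0.75 within that version and -0.42 within version 2.2.4.

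No FGF gene passed the threshold in limma. At an unadjusted p under 0.05 none of the 28 was higher and 6 were lower, beside 14.8% and 7.72% of all features. The smallest adjusted p was that of Fgf7, the keratinocyte growth factor that mesenchymal cells make for epithelium. Its levels in LPS pools 1 to 4 were -0.84, -0.88, -1.12 and -0.86, against -0.44, -0.49, -0.56 and -0.44 in air pools 1 to 4. All LPS pools lay below all air pools, with a difference of -0.44 ± 0.12 (SE, n = 4 per group), 1.36-fold lower, and an adjusted p of 0.0545 in limma. It was past the threshold in 5 of 21 alternatives, where adjusted p-values over all 21 ran between 0.0132 and 0.161.

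The other mesenchymal ligand for the same receptor, Fgf10, differed by -0.41 ± 0.16 (SE, n = 4 per group; limma, adjusted p = 0.162). Its levels were 0.48, 0.4, 0.39 and 0.68 in LPS pools 1 to 4 and 0.94, 0.85, 0.56 and 1.25 in air pools 1 to 4, with 1 LPS pool above 1 air pool. Fgf21, an endocrine FGF, had a difference of -0.57 ± 0.18 (limma, adjusted p = 0.0989), and Fgf2 one of 0.24 ± 0.21 (limma, adjusted p = 0.521). Fgf1, which binds all FGF receptors, differed by -0.33 with a wide 95% interval of -1.53 to 0.88.

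The receptor kinases Fgfr2, Fgfr3 and Fgfr4 had lung signals more than 2-fold above the reference RNA in air on average. Fgfr1 lay below the reference, at -1.53 ± 0.34 in air pools (SD, n = 4). It differed by -0.13 ± 0.32 (SE; limma, adjusted p = 0.841), with 0.26 within version 2.2.3 and -0.52 within version 2.2.4. Fgfr3 measured 0.78, 0.84, 1.68 and 1.37 in LPS pools 1 to 4, against 2.33, 2.33, 1.35 and 1.64 in air pools 1 to 4. Its groups overlapped as a whole, but within each version both LPS pools lay below both air pools, by 0.69 and by 0.80. The difference was -0.75 ± 0.27 (SE, n = 4 per group; limma, adjusted p = 0.143), and the adjusted p was 0.00508 with the version as a block. Fgfr4 had a difference of -0.79 ± 0.37 (limma, adjusted p = 0.246; 0.0204 with the version as a block), and Fgfr2, the receptor of Fgf7 and Fgf10, one of -0.46 ± 0.20 (limma, adjusted p = 0.205; 0.0584 with the block).

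Among the BMP genes none of the 25 passed the threshold in limma. At an unadjusted p under 0.05, 2 were higher and 3 lower, beside 14.8% and 7.72% of all features. Bmp8b had levels of 0.9, 0.51, 0.61 and 0.62 in LPS pools 1 to 4 and of 0.36, 0.25, -0.17 and 0.12 in air pools 1 to 4. The groups did not overlap, and the difference was 0.52 ± 0.15 (SE, n = 4 per group; limma, adjusted p = 0.0734). Of the growth and differentiation factors, Gdf5, known from joint formation, differed by -0.49 ± 0.19 (limma, adjusted p = 0.156), and Gdf1, known from left-right patterning, by -0.39 ± 0.16 (limma, adjusted p = 0.18).

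Bmpr2 is the type II BMP receptor whose loss in humans causes heritable pulmonary arterial hypertension. It was more than 2-fold above the reference in air on average, and its LPS pools 1 to 4 had levels of 2.4, 2.32, 2.04 and 2.14, against 2.44, 2.5, 0.94 and 1.33 in air pools 1 to 4. Air pools 3 and 4 were the low ones, and the difference was 1.22 within version 2.2.3 but -0.38 within version 2.2.4. Over all pools it was 0.42 ± 0.32 (SE, n = 4 per group; limma, adjusted p = 0.473). Bmp4, a regulator of branching in the embryonic lung, differed by -0.21 ± 0.17 (limma, adjusted p = 0.506), and Bmp2 by 0.27 ± 0.44 (limma, adjusted p = 0.757).

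The 4 pathways were compared by their counts and medians, without a test between them. TGF-beta with activin had 3 of 12 members higher (25%) and a median difference of 0.17. Wnt had 1 of 37 higher (2.7%) and a median of -0.1, while FGF and BMP had none of 28 and of 25 higher and medians of -0.21 and -0.19. None of the 4 pathways had a member that fell by the same test. Over all features, 5.95% were higher and 0.713% lower. The medians within version 2.2.3 were 0.35 for TGF-beta, -0.19 for Wnt, -0.32 for FGF and -0.24 for BMP, and within version 2.2.4 they were 0.06, -0.03, -0.12 and -0.03 in the same order. Over all features the median was 0.06 within version 2.2.3 and -0.01 within version 2.2.4. Each pathway median kept its side of 0 in both versions and was nearer 0 in version 2.2.4. There the Wnt and BMP medians were close to that of all features.

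**Figure D2:**
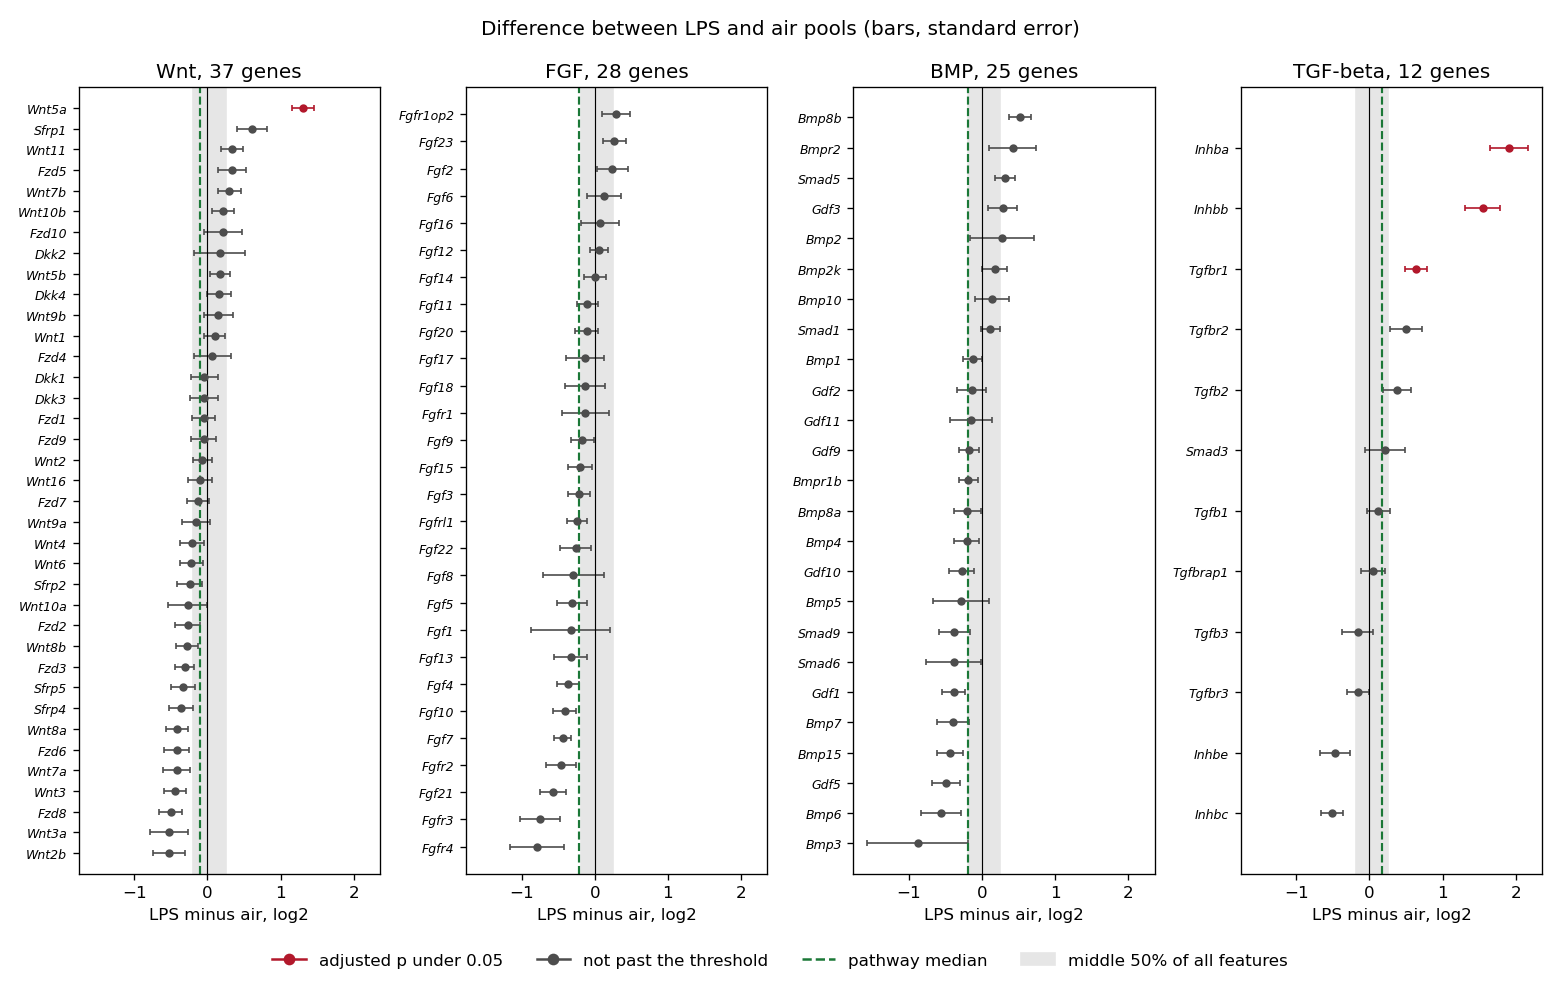
Difference between LPS and air pools (LPS minus air, log2) for every member of the 4 pathways, 1 panel per pathway, with points for genes and bars for the standard error; red points have an adjusted p under 0.05, the green dashed line is the pathway median, and the grey band holds the middle 50% of all features. Inhba, Inhbb, Tgfbr1 and Wnt5a are the red points, and the medians lie at -0.1 (Wnt), -0.21 (FGF), -0.19 (BMP) and 0.17 (TGF-beta).

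Because the image program version holds both groups, it could be fitted as a block. With it, 13 members (12.6%) passed the threshold, the 4 named above among them, against 11% of all features. Sfrp1, Tgfbr2 and Bmp8b joined as higher, giving 7 higher members beside 8.72% of features. Fgf7, Fgf21, Fgfr3, Fgfr4, Bmp3 and Bmp6 were lower, giving 6 members beside 2.26% of features. By pathway, the block called 2 higher in Wnt, 4 lower in FGF, 1 higher and 2 lower in BMP, and 4 higher in TGF-beta.

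**Figure D3:**
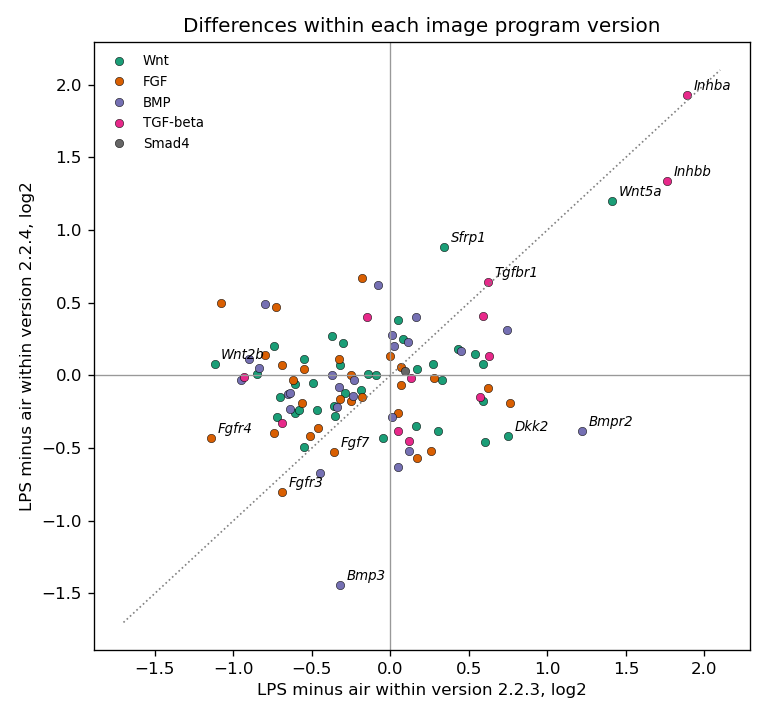
Each member's LPS minus air difference (log2) within the pools of image program version 2.2.3 (x axis) and within those of version 2.2.4 (y axis), coloured by pathway, with a dotted line of equality. Inhba (1.89 and 1.93), Inhbb (1.76 and 1.34), Wnt5a (1.41 and 1.2) and Tgfbr1 (0.62 and 0.64) lie above 0 on both axes, while Bmpr2 (1.22 and -0.38) and Dkk2 (0.75 and -0.42) lie on opposite sides of 0.

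Over all 103 members, the difference itself changed with the version in 12 by an interaction term in limma (11.7%, against 8.95% of all features). Of all members 22 were higher within both versions, 36 lower within both, and 41 had opposite signs. Some members were separated by version more than by exposure. In air, 12 members had a mean level more than 2-fold above the reference. For 5 of these 12 (41.7%) the 4 pools of one version all lay above the 4 pools of the other, whatever their exposure. The 2-fold cut used the same air pools, so a gene high in only 1 version could pass it. Bmp3 and Bmp5 did so, with air pools of version 2.2.3 at 0.8 and 0.59 and at 0.55 and 0.54. The 41.7% can therefore be raised by the cut itself. Over all 103 members this held for 9 (8.74%), a smaller share than the 11% of all features. The share among all features that were also more than 2-fold above the reference in air was not computed. Bmp3 was one of the 5. Its levels were 0.48 and 0.26 in the LPS pools of version 2.2.3 and 1.93 and 1.85 in those of version 2.2.4. They were 0.8 and 0.59 in the air pools of version 2.2.3 and 3.57 and 3.08 in those of version 2.2.4. Its difference was -0.88 ± 0.69 (SE, n = 4 per group; limma, adjusted p = 0.476) without the block, and its adjusted p was 0.035 with it. Fgf1, Fgfr4, Bmp5 and Bmp6 were the other 4. These genes were named after their values were seen.

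**Figure D4:**
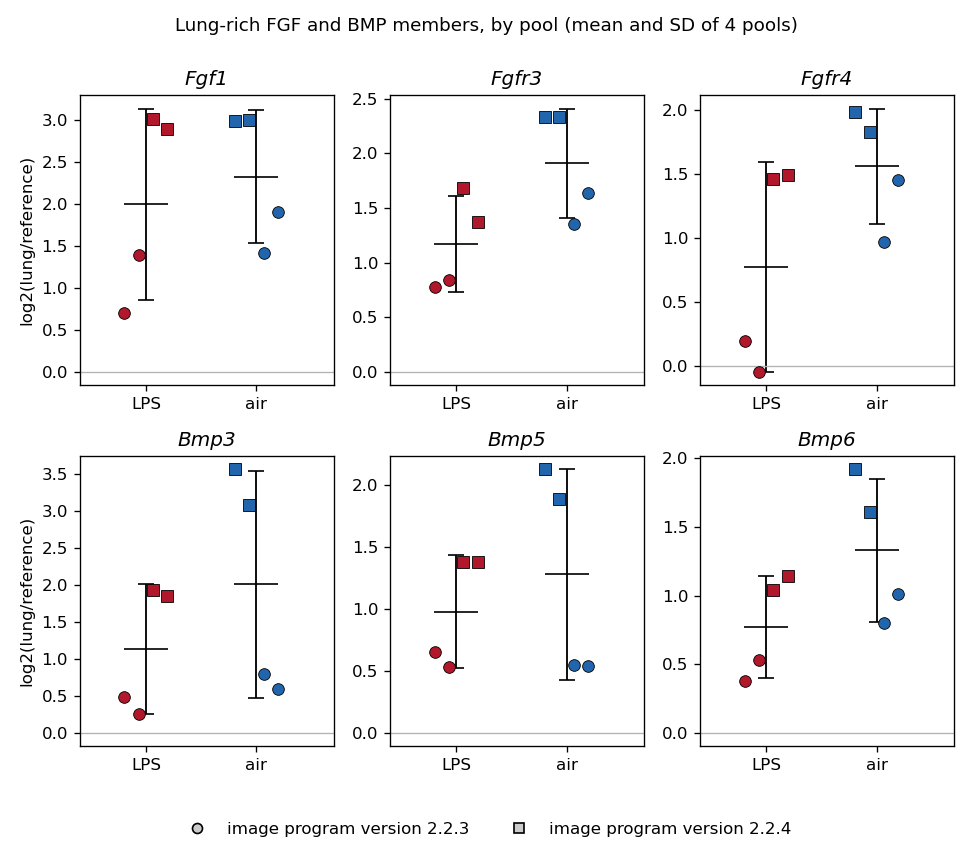
Level of 6 FGF and BMP members that lay more than 2-fold above the reference RNA in air on average, as log2(lung/reference) per pool. Fgfr2, Fgf12 and Bmpr2 also lay above that level in air, were not separated by version and are not shown. LPS pools are in red at the left and air pools in blue at the right. Circles are version 2.2.3, squares version 2.2.4, and bars the mean and SD of 4 pools. In Fgf1, Fgfr4, Bmp3, Bmp5 and Bmp6 every square lies above every circle, and in Fgfr3 the LPS pools lie below the air pools of the same version.

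Other genes of the pathways were taken from lists of coreceptors, intracellular components, inhibitors and target genes. Over all features, 6.67% changed by limma (5.95% higher and 0.713% lower), and the version block called 8.72% higher and 2.26% lower. On the TGF-beta and activin list, 6 of 41 measured genes rose and none fell by limma (14.6% changed), with a median difference of 0.05. Fn1, the matrix glycoprotein fibronectin, rose by 2.03 ± 0.19 (limma, adjusted p = 0.000171), and Col3a1, a fibrillar collagen, by 1.90 ± 0.17 (limma, adjusted p = 0.000141). Tgif1, a corepressor that binds Smads, was at -0.48 ± 0.17 in LPS pools and -1.74 ± 0.05 in air pools (SD, n = 4 each), a rise of 1.26 ± 0.13 (SE; limma, adjusted p = 0.000336). Skil, another Smad corepressor, Tgfbi, a TGF-beta-induced matrix protein, and Acta2, smooth muscle actin, also rose. Fst, which binds and blocks activin, had a difference of 0.54 ± 0.17 that did not pass (limma, adjusted p = 0.0886; 0.0451 with the version as a block). The block called 11 genes of this list higher and none lower. Skil, Tgfbi, Acta2 and Fst were named after their values were seen.

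The FGF list had 5 of 34 measured genes higher and none lower by limma (14.7% changed; median 0.07). The 3 with the smallest p serve heparan sulphate: Sdc4, a cell-surface heparan sulphate proteoglycan, rose by 1.31 ± 0.17 (limma, adjusted p = 0.00161), Ext1, which builds the chain, by 0.84 ± 0.13 (limma, adjusted p = 0.00389), and Hs6st1, which sulphates it, by 0.68 ± 0.12 (limma, adjusted p = 0.00852). Cbl, a ubiquitin ligase of receptor kinases, and Spry4, a feedback inhibitor of FGF signalling, were the other 2. Of the same family as Spry4, Spry1 went the other way without passing, at -0.52 ± 0.16 (limma, adjusted p = 0.0844). Spry2 differed by 0.07 ± 0.18 (limma, adjusted p = 0.858). Cbl and these Spry genes were named after their values were seen. With the version as a block, 6 genes of the list were higher and 1 lower.

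On the BMP list 2 of 32 measured genes rose and none fell by limma, with a median of -0.09. The share changed was 6.25%, against 6.67% of all features. Id2, a helix-loop-helix inhibitor induced by BMP, rose by 0.91 ± 0.16 (limma, adjusted p = 0.00904), and Bmper, a secreted BMP-binding protein, by 0.81 ± 0.15 (limma, adjusted p = 0.0125). Bambi, a pseudoreceptor for the family, differed by -0.93 ± 0.28 (limma, adjusted p = 0.0786), with -0.92 within version 2.2.3 and -0.93 within version 2.2.4. It passed as lower with the version as a block, at an adjusted p of 0.00268, the 1 gene of this list that did. The Wnt list had 1 gene higher and 1 lower of 55 measured, with a median of -0.05. Its share changed was 3.64%, below the 6.67% of all features. Csnk1a1, a kinase of the beta-catenin destruction complex, rose by 0.59 ± 0.14 (limma, adjusted p = 0.0371). Kremen2, a Dickkopf coreceptor, was at 0.11 ± 0.18 in LPS pools and 0.67 ± 0.11 in air pools (SD, n = 4 each), and fell by 0.56 on the log2 scale (limma, adjusted p = 0.034). Lrp4 differed by -0.61 ± 0.17 (limma, adjusted p = 0.0635; 0.0434 with the version as a block). With that block the Wnt list had 3 genes higher and 3 lower, and the BMP list 2 higher and 1 lower.

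Markers of macrophages, monocytes and neutrophils moved with the exposure. Of 14 measured macrophage and monocyte markers 9 rose, where 5.95% of all features did. The mean level of these markers was 1.64 to 2.11 in LPS pools and 0.32 to 0.81 in air pools. Of 15 measured neutrophil markers 7 rose, with mean levels of 1.43 to 2.41 in LPS pools and 0.12 to 0.84 in air pools. Of 18 mesenchymal markers 3 rose (Pdgfra, and Col3a1 and Acta2 that are also on the TGF-beta list), at mean levels of 0.17 to 0.42 in LPS pools and -0.06 to 0.21 in air pools. The mesenchymal list went both ways, with 9 genes above 0 and 9 below, a median difference of 0.00 and a lowest one of -0.82. At an unadjusted p under 0.05, 7 of its genes were higher and 1 lower, and with the version as a block 6 were higher and 1 lower. Over all features these shares were 14.8% and 7.72% unadjusted, and 8.72% and 2.26% with the block. None of 12 endothelial and of 10 lung tissue markers changed by limma, while 1 endothelial marker was lower and 2 lung markers higher at an unadjusted p under 0.05, and the version block gave the same counts. Endothelial markers had mean levels of 1.4 to 2.43 in LPS pools and 1.59 to 2.54 in air pools. No measured marker of these 5 lists had a median lung signal below the local background on the air arrays. The part of these cells in the differences of Wnt5a, Inhba, Inhbb, Tgfbr1 and the other pathway genes was not tested.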

How the data were processed

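Lung RNA of 4 LPS pools and 4 air pools was hybridised against a universal mouse reference RNA on 16 two-colour arrays, with groups, pools and dyes taken from the labels. Each deposited spot table holds, per the file headers, intensity values from TIGR Spotfinder version 2.2.3 or 2.2.4, with the local background subtracted and no normalisation. The deposited tables also hold a score per spot, a factor not defined in the sources used here, and leaving out spots where it was below 1 was an alternative. The array of air pool 4 with lung in Cy3 was left out because, per the file headers, its file joins the images of 2 arrays, so in that pool the dye effect does not cancel.

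With R 4.3.3 and limma 3.58.1, spots of 0 or below were set to missing, ratios were normalised within arrays by loess, turned to log2(lung/reference) and averaged per pool, which was the replicate. Features with 3 or more pools per group were tested two-sided with lmFit and eBayes, and p-values were adjusted by Benjamini and Hochberg's method (threshold 0.05). The brightest probe stood for a gene. Other probes existed for 7 members and had the same sign of difference in 5, while Smad5 and Tgfbrap1 disagreed between probes. The test was checked on simulated data. The number of arrays limits the precision.

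Probe names depend on how annotation numbers lie on the grid of 215 by 105 spots. The layout used gave r = 0.527 between 2 probes of a gene over 1030 gene pairs in air pools, against at most 0.0718 for the other 7 layouts. Of 22575 spots, 18218 had 1 gene symbol, 16 several and 4341 none. RefSeq's table matched 18175 by gene number.

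The authors' deposited log2 ratios, used as an alternative, followed log2(lung/reference) of the same spots with slopes of 0.961 to 0.997 and r of 0.982 to 0.998, so scale and direction are settled, while their normalisation and centring are not given in the sources used here. For the array left out, the deposited column was on the log10 scale (slope 0.297). Column medians with lung in Cy3 were -0.0529, 0.0125, -0.136 and -0.129 for LPS pools 1 to 4 and -0.0186, -0.0958, 0.0514 and 0.00332 for the air pools in the same order. On the Cy5 arrays the LPS pools had -0.0448, -0.0355, 0.0471 and 0.0342, and the air pools 0.059, 0.086, 0.0889 and 0.0782.

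The members and gene lists were chosen with earlier results of these data known. The named members are those past the threshold, up to 3 with the smallest p per pathway and a fixed set of pathway genes; of each other list, up to 3 genes with the smallest p are named. The alternatives were the arrays used, the normalisation, dim spots, spots with the undefined factor below 1, the probes of a gene, the features in the adjustment, the authors' ratios, the version as a block or taken alone, the pool number as a block, and each pool left out.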

Additional observations from a re-analysis of the deposited data

Results flagged for a closer look

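In 3 of 58 groups of 4 pools checked among the named members, 1 pool stood apart by Dixon's criterion at 95%, where chance gives about 1 group in 20. Fgf7 in LPS pool 3 was at -1.12, with the other LPS pools between -0.88 and -0.84. Tgfb1 in air pool 3 was at 0.12, with the other air pools between -0.5 and -0.41, and Smad3 in air pool 2 was at 0.03, with the others between -1.26 and -1.19.

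For 12 of 103 members (11.7%, against 8.95% of all features) the difference between LPS and air itself differed between the image program versions. The test was an interaction term in limma with an adjusted p under 0.05. Among the air pools the version goes with the week number in the image names, and this term cannot tell them apart. Given as version 2.2.4 minus version 2.2.3, the LPS minus air difference was larger by 1.20 in Wnt2b, 0.86 in Wnt7a, 1.20 in Fgf17, 0.92 in Gdf5, 1.29 in Gdf11 and 0.92 in Inhbe. The same quantity was -1.17 in Dkk2, -0.72 in Fgf23, -0.95 in Fgfr1op2, -0.74 in Fgf15, -1.60 in Bmpr2 and -1.11 in Bmp3. Wnt5a, Inhba, Inhbb and Tgfbr1 had values of -0.21, 0.03, -0.42 and 0.02, with adjusted p-values of 0.645, 0.941, 0.282 and 0.959.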

How the results depend on the processing

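Inhba and Inhbb were past the threshold in all 21 alternatives, at differences of 1.71 to 2.06 and 1.34 to 1.76, Wnt5a in 19 (1.14 to 1.43) and Tgfbr1 in 13 (0.52 to 0.73). The 1375 changed features became 501 with all 16 arrays, 735 with median centring, 2265 with the version as a block, 4707 within version 2.2.3, 857 with the pool number as a replicate block and 697 to 1245 with a pool left out. The lowest, 697, was without LPS pool 1, and the count was 746 without LPS pool 2, 809 without LPS pool 3 and 762 without air pool 4. The 4 changed members became 2 with lung in Cy5 only, 13 with the version block, 29 within version 2.2.3 and 7 within version 2.2.4, where 2 pools a group were fitted. The replicate block left 3 (Inhba, Inhbb and Wnt5a). Pool numbers were not taken to pair the pools. Deviations of same-numbered pools correlated at -0.0374, -0.263, -0.0478 and -0.252, and no LPS pool correlated best with the air pool of its own number. Same-numbered LPS and air pools always differed in image program version, so these correlations cannot decide whether the numbers pair the pools. The Wnt median of -0.1 became -0.05 with all 16 arrays, -0.17 with the authors' deposited ratios, -0.19 within version 2.2.3, -0.03 within version 2.2.4 and -0.15 without air pool 4. The BMP median was -0.03 within version 2.2.4 and the TGF-beta median 0.35 within version 2.2.3. Differences that turned sign belonged to members not past the threshold. They were Wnt7b (-0.11 with median centring), Dkk2 (-0.42 within version 2.2.4), Fzd1 (0.27 within 2.2.4), Fzd4 (-0.04 with Cy5 only, -0.46 within 2.2.4), Dkk3 (0.16 with scale normalisation, 0.30 within 2.2.3), Fgf2 (-0.18 within 2.2.3), Bmpr2 (-0.38 within 2.2.4), Bmp2 (-0.08 within 2.2.3), Tgfb3 (0.01 with Cy5 only, 0.12 within 2.2.3), Tgfb1 (-0.15 within 2.2.3) and Smad3 (-0.04 with all 16 arrays, -0.15 within 2.2.4). Smad3 also moved upward, to 0.57 within version 2.2.3, 0.52 without air pool 2 (0.10 to 0.52 with any pool left out), 0.47 with Cy5 only and 0.42 as the mean over its probes, and passed the threshold in none of the 21 alternatives. With a pool left out, the range was -0.09 to 0.44 for Dkk2, -0.12 to 0.06 for Fzd1, -0.16 to 0.22 for Fzd4, -0.15 to 0.07 for Dkk3, -0.67 to 0.11 for Fgf1 and -0.03 to 0.55 for Bmp2. The cause of these changes was not tested. Signal over background limits the dimmest probes most. The median lung signal was 1.62 and 1.28 times the local background for Wnt7b on LPS and air arrays, and 10.3 and 1.73 times for Inhba. Dkk1 (1.46 and 1.3), Dkk4 (1.28 and 1.07) and Inhbc (1.56 and 1.75) were dim on the arrays of both groups.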

Other observations

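By mean intensity, features were cut into 4 equal classes, with class 1 the dimmest. The 4 changed members were 3 of the 30 members in class 2 and 1 of the 25 in class 4. In class 1 none of 23 members changed by limma and in class 3 none of 25. Over all features, 3.94% changed in class 1, 5.93% in class 2 (5.02% higher), 6.86% in class 3 and 9.93% in class 4.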
